A study of Mus musculus with 16 samples.

Results

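The genotype by morphine interaction asks, for each gene, whether the difference between morphine and naive tissue is the same in mice labelled knockout for RGSz1 as in mice labelled wild type. It was computed as knockout morphine minus knockout naive, minus the same difference in wild type, over all 16 of the 16 libraries, and once more over 14 libraries. The tissue was punched periaqueductal gray (PAG) of male mice. The 4 groups were wild type naive, wild type morphine, RGSz1 knockout naive and RGSz1 knockout morphine, with 4 polyA RNA-seq libraries each, and each library pooled punches from 2 animals, so differences between single animals cannot be seen. The labels used here give no dose, duration or age for morphine treatment and call the controls naive, not saline, so effects of injection or handling cannot be told apart from those of the drug. They also do not say how the knockout allele was made.

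The PAG is a midbrain region that gates pain, and opioids acting on it through the mu receptor produce analgesia and, with repeated use, tolerance. RGSz1, encoded by Rgs20, belongs to the RGS proteins, which speed the hydrolysis of GTP by G protein alpha subunits and so shorten signals from receptors such as the opioid receptors; its preferred partner is Gz. The study asks how morphine tolerance and RGSz1 shape gene expression in the PAG, and its title names the Wnt/beta-catenin pathway, a route by which secreted Wnt proteins stabilise beta-catenin and switch on target genes.

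Rgs20 itself did not separate the labels. Its level, given throughout as CPM (counts relative to the TMM-scaled library total), was 11.6, 13, 13.4 and 13.1 in wild-type naive libraries 1 to 4 and 14.4, 13.3, 11.9 and 12.7 in wild-type morphine libraries. The naive libraries labelled knockout held 12.3, 11.9, 12.3 and 14 CPM, and their morphine counterparts 13, 12, 11.4 and 11.9 CPM. The groups overlapped, and the log2 difference of knockout minus wild type was -0.02 ± 0.07 (SE) in naive libraries, with an edgeR adjusted p of 0.943. A count summed over the whole gene cannot place reads on single exons, so it neither shows nor denies a deletion within it. Every direction given here is therefore between libraries labelled knockout and libraries labelled wild type. The interaction for Rgs20 was -0.09 ± 0.10 (log2, SE), with a 95% interval of -0.31 to 0.12.

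Counts over genes totalled 19.1 to 55.0 M per library. A pair of them stood apart in markers of meningeal fibroblasts, the cells of the membranes around the brain: the summed level of 11 markers was 2230 CPM in wild-type naive library 2 and 2210 CPM in knockout morphine library 3, against 320 to 488 CPM in 13 others. Knockout morphine library 1 lay between, at 988 CPM. Wild-type naive and knockout morphine both enter the contrast with a plus sign, so a gene that is high in this pair has a higher interaction, and each main result is given from all 16 libraries and from the 14 that leave both out. Markers of serotonin neurons, which lie in the dorsal raphe beside the PAG, varied more evenly, from a summed 172 CPM in knockout naive library 3 to 1820 CPM in knockout morphine library 4. In bulk tissue, fewer cells of a type and less RNA per cell cannot be told apart.

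**Figure D1:**
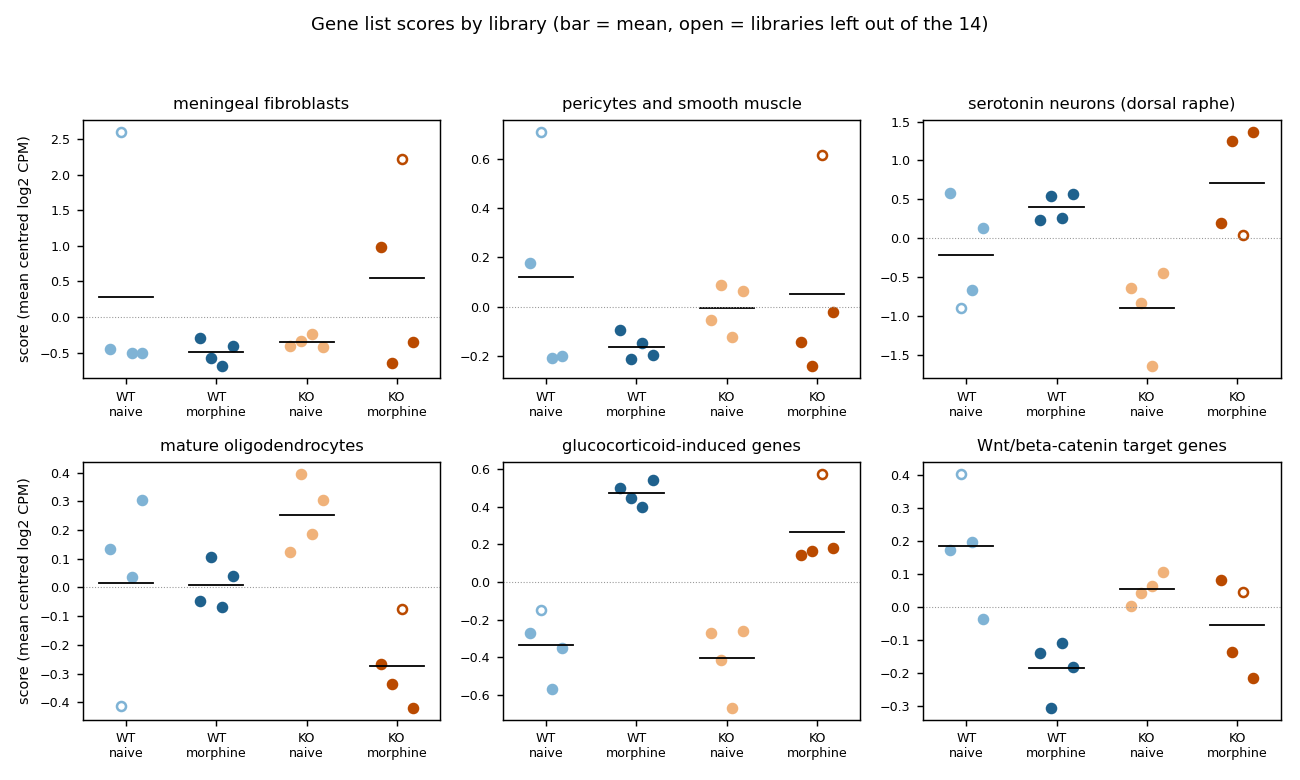
Score of 6 gene lists in each library (y axis, mean of log2 CPM centred over the 16 libraries; bars are group means; open circles are the 2 libraries left out of the 14). The meningeal score reaches 2.6 in wild-type naive library 2 and 2.22 in knockout morphine library 3, the mean serotonin score is lowest in the knockout naive group, and the oligodendrocyte score is lowest in knockout morphine libraries and in wild-type naive library 2.

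With all 16 libraries, no gene's morphine response differed between the genotypes past the threshold. Of 18111 genes tested with edgeR's quasi-likelihood test, 0 had a Benjamini-Hochberg adjusted p under 0.05 (0% called), and the smallest adjusted p was 0.106. At an unadjusted p under 0.05 there were 2200 genes, 12.1% of those tested, 1034 higher (5.71%) and 1166 lower (6.44%) in the interaction. limma-voom also called 0, and DESeq2's Wald test called 107. The median standard error of an interaction was 0.107 on the log2 scale, and the median half-width of its unadjusted 95% interval was 0.225. Passing the adjusted threshold takes a larger difference: the smallest unadjusted p of edgeR's test, 1.25e-05, had an adjusted p of 0.106. The absence of calls therefore does not exclude differences above 0.225 for a typical gene.

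Within each genotype the picture was different. Morphine against naive passed for 2082 genes in knockout (11.5% of those tested) and for 798 in wild type (4.41%), with 385 in both, of which 384 had the same sign. None of the 1697 genes called in knockout only, or of the 413 called in wild type only, passed the interaction. A call in one genotype and not in the other was therefore not, in these 16 libraries, a shown difference between them. With 14 libraries, 51 of 2683 knockout-called genes (14.8% called) and 15 of 558 wild-type-called genes (3.07%) passed the interaction. Over all genes tested there, 0.352% passed it. Each genotype's contrast is a part of the interaction, so a larger share among genes called in a genotype was built in.

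Among the 12 genes named from the 16-library result, none of which passed, the one of smallest p on the higher side was Npy2r, the Y2 receptor for neuropeptide Y. Npy2r (ENSMUSG00000028004.6, chr3:82538383-82548084, minus strand) held 6.72, 6.04, 5.45 and 5.56 CPM in wild-type naive and 6.16, 5.44, 5.64 and 5.63 CPM in wild-type morphine libraries. It held 4.44, 4.59, 5.44 and 5.64 CPM in knockout naive and 7.66, 9.2, 7.75 and 9.41 CPM in knockout morphine libraries. The wild-type groups overlapped, and every knockout morphine library lay above every other library. The interaction was 0.81 ± 0.14 (adjusted p 0.106) in 16 libraries and 0.84 ± 0.15 (adjusted p 0.0314) in 14, and within knockout the level rose 1.7-fold in the former.

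Btg2, an anti-proliferative gene that behaves as an immediate early gene, had opposite responses in the 2 genotypes. It held 9.65, 14.3, 13 and 8.85 CPM in wild-type naive libraries and fell to 7.98, 8.22, 7.12 and 8.44 CPM with morphine. In knockout it rose from 7.97, 5.9, 6.41 and 8.07 CPM to 10.4, 8.77, 10 and 9.43 CPM. Neither pair of groups overlapped, and both responses passed on their own in 16 libraries (-0.54 ± 0.14, adjusted p 0.0338, and 0.44 ± 0.14, adjusted p 0.0496). Without the pair the wild-type response no longer passed (-0.42 ± 0.13, adjusted p 0.110). Their difference did not: the interaction was 0.98 ± 0.20, with an adjusted p of 0.143 in 16 libraries and 0.0732 in 14. Wild-type naive libraries 2 and 3 were the highest of the 16. Among naive libraries Btg2 was lower in knockout than in wild type in the 16-library fit (-0.69 ± 0.14, adjusted p 0.0208; 0.906% of all genes were called) and missed the threshold in 14 (adjusted p 0.0694).

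The promoter of Btg2 is shown because it was the single window with a full cyclic AMP response element among the 15 named genes with a RefSeq promoter. The motifs searched, on both strands of the 250 bases before each gene's start, were TGACGTCA (the CRE), the shorter core TGACG that lies within it, and the glucocorticoid response element. In the line below, from the minus strand of chr1:134079156-134079405 (GRCm38.p6), the capitals mark the CRE, which begins 166 bases before the start.
Btg2: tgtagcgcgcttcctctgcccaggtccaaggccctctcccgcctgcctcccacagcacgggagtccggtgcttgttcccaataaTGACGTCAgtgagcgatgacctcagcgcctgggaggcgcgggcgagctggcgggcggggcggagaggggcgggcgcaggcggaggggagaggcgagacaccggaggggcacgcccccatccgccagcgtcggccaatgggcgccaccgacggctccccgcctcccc
Of 32851 promoter windows of that length, 1.55% held a full CRE, 17.8% the core and 0.387% the glucocorticoid element, so a match is a description of these letters and not a site of binding.

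Of the other genes named from 16 libraries, Ass1, an enzyme of arginine synthesis, had an interaction of 0.25 ± 0.05 and Gpc4, a glypican of the cell surface, one of 0.59 ± 0.13. Setbp1 was at 0.29 ± 0.06 and Sntg2, a syntrophin, at 0.67 ± 0.15. On the lower side, Traf6, an adaptor of innate immune receptors, had -0.36 ± 0.07. Traf6 passed in 14 libraries, with an adjusted p of 0.0256, and Ass1, Gpc4, Setbp1 and Sntg2 did not.

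With the meningeal-marker pair left out, 64 of 18177 genes (0.352%) passed edgeR's adjusted p, 18 higher (0.099%) and 46 lower (0.253%) in the interaction. At an unadjusted p under 0.05 there were 2318 (12.8%). limma-voom called 22 and DESeq2 345. The number depends on the libraries in use. Leaving out only wild-type naive library 2 gave 0 calls, and leaving out only knockout morphine library 3 gave 56, of which 48 were among the 64. All 64 had the same sign in the 16-library fit, where 17 of the 18 higher and 45 of the 46 lower genes had an unadjusted p under 0.05. Leaving out 1 more of the 14 gave from 1 call, without wild-type morphine library 2 or knockout morphine library 4, to 208, without wild-type naive library 4. The 2 fits share 14 libraries and are not independent of each other.

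The genes were then sorted by each genotype's own contrast, which describes them and is not a test of which response carried the difference. Over all 18177 genes, 2365 were called in knockout only, 240 in wild type only and 318 in both. Of the 18 higher genes, 17 were called in knockout only and 1 in wild type only. Their median response was 0.42 in knockout and 0.01 in wild type (log2). Of the 46 lower genes, 32 were called in knockout only, 12 in wild type only and 2 in both; their responses had opposite signs in 30. The median interaction was 0.38 for the higher and -0.40 for the lower genes. Knockout differed from wild type among morphine libraries for 11 of the 18 and 29 of the 46 (1.3% of all genes), and among naive libraries for 2 and 6 (0.572%). Each of these contrasts, like each genotype's own, is a part of the interaction that chose the genes. Shares above those of all genes were therefore built in. Apart from the pseudogene Gm7224, the genes are described in 3 sets: genes that rose with morphine in knockout, genes that fell in knockout, and genes that rose in wild type. Genes named beyond those with the 6 smallest p in each direction were chosen after their values were seen, for their known roles.

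**Figure D2:**
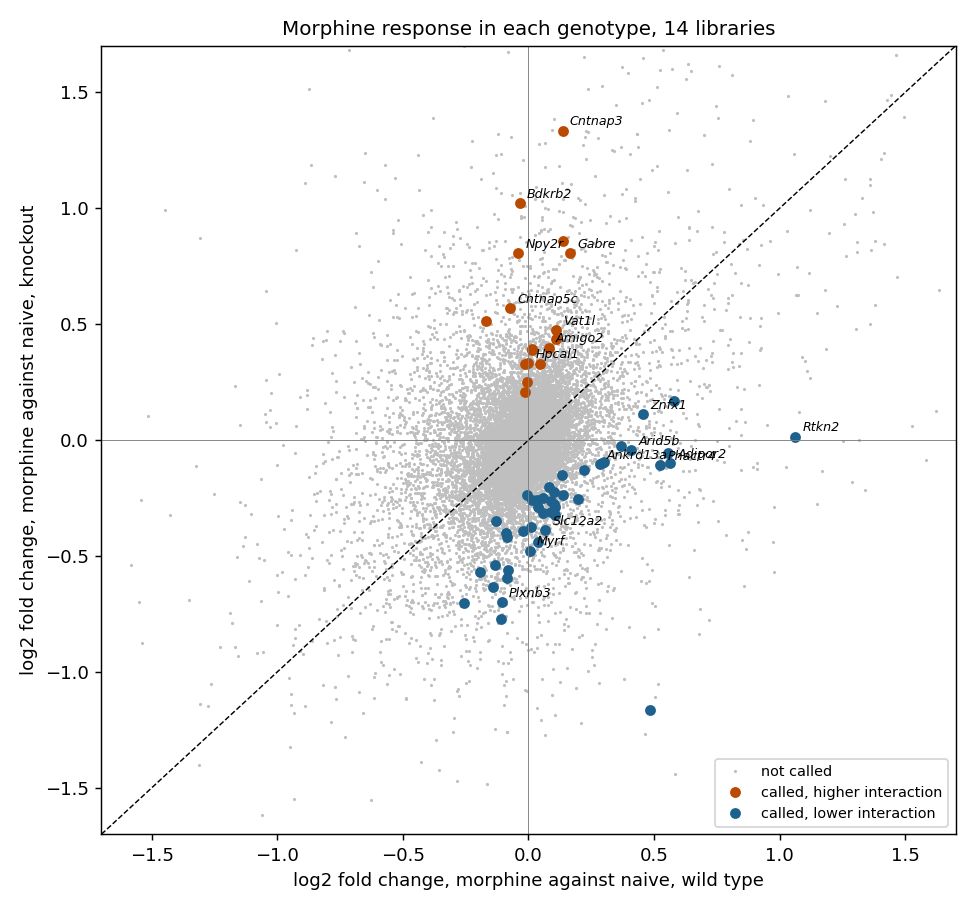
Log2 fold change of morphine against naive in wild type (x axis) and knockout (y axis) for the genes tested in 14 libraries; the dashed line marks equal responses, orange and blue points are the 18 and 46 genes called for the interaction, and 82 genes, 1 of them called, lie outside the axes at 1.7. Called genes above the line sit near 0 in wild type and above 0 in knockout, and called genes below it form one group that is lower in knockout and another that is higher in wild type.

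Of the genes that rose with morphine in knockout, Cntnap3 had the smallest p for the interaction in 14 libraries. Cntnap3 (ENSMUSG00000033063.7, chr13:64736182-64903955, minus strand), a neurexin-family contactin-associated protein, held 6.54, 4.87, 5.51 and 6.59 CPM in wild-type naive and 6.72, 7.11, 6.88 and 6.54 CPM in wild-type morphine libraries. In knockout it went from 4.93, 3.7, 3.78 and 4.69 CPM to 8.29, 12.4, 6.99 and 12.1 CPM, with no overlap between those 2 groups. The left-out library 3 was the lowest of the 4 knockout morphine libraries at 6.99 CPM. The interaction in 14 libraries was 1.20 ± 0.18 (95% interval 0.81 to 1.59, adjusted p 0.0214), a 2.52-fold rise in knockout beside a 1.1-fold difference in wild type that did not pass.

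Cntnap5c (ENSMUSG00000038048.7, chr17:57769570-58410355, plus strand), of the same family, was at 12.1, 13.3, 12.8 and 12 CPM in wild-type naive and 12.1, 11.9, 11.9 and 11 CPM in wild-type morphine libraries. Knockout naive libraries held less, 9.36, 7.99, 9.91 and 10.1 CPM, and knockout morphine libraries 13.2, 12.8, 9.96 and 15.3 CPM. Cntnap5c was thus lower in knockout than wild type without morphine (-0.40 ± 0.08, adjusted p 0.0364 in 14 libraries) and came up to the wild-type range with it, apart from library 3. Its interaction was 0.64 ± 0.12 (adjusted p 0.0314).

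Amigo2, Hpcal1 and Vat1l also rose in knockout. Amigo2 (ENSMUSG00000048218.5, chr15:97244125-97247287, minus strand), a leucine-rich adhesion protein, was between 51.3 and 59.4 CPM in all 8 wild-type libraries. It was 50.5, 48.7, 49.7 and 48.6 CPM in knockout naive and 66.7, 64, 48.6 and 64.3 CPM in knockout morphine libraries. The library at 48.6 is the left-out one, with which the interaction was 0.23 ± 0.10 (adjusted p 0.357) and without which it was 0.32 ± 0.05 (adjusted p 0.0256).

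Hpcal1 (ENSMUSG00000071379.1, chr12:17690856-17791933, plus strand), a neuronal calcium sensor, was at 79.1, 73.2, 76.1 and 79.9 CPM in knockout naive and 93.8, 97.4, 79.6 and 99.8 CPM in knockout morphine libraries, against 76.3 to 86 CPM over wild type. Its interaction in 14 libraries was 0.33 ± 0.06 (adjusted p 0.0332). Vat1l (ENSMUSG00000046844.6, chr8:114205612-114374071, plus strand) was at 277, 246, 272 and 251 CPM in knockout naive and 335, 382, 298 and 372 CPM in knockout morphine libraries. It also lay higher in wild-type morphine (309 to 322 CPM) than in wild-type naive libraries (261 to 304 CPM), and its interaction was 0.36 ± 0.07 (adjusted p 0.0332). For these 3 genes the left-out knockout library was the lowest of its group.

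The other higher genes below are given for their known roles. In the 14 fits that left out 1 more library, Bdkrb2 was called in 2, Asic2 in 3, Gabre and Cdh13 in 4, and Nbl1 and Ldha in 6. None of them passed with limma-voom (adjusted p 0.0542 to 0.0614). Bdkrb2, the B2 receptor for bradykinin, a peptide of pain and inflammation, had 1.06 ± 0.22. It averaged under 1 in log2 CPM, the floor set for named genes, and did not pass with the replicate block (edgeR adjusted p 0.063). Gabre, the epsilon subunit of the GABA-A receptor, had 0.64 ± 0.13, with a knockout response of 0.81. Asic2, an acid-sensing ion channel, had 0.25 ± 0.05, and Cdh13, T-cadherin, 0.37 ± 0.07. Nbl1, a secreted antagonist of BMP signals, had 0.72 ± 0.14 without the pair and 1.54 with it, more than a 1.5-fold change in value. Ldha, the subunit of lactate dehydrogenase, had 0.28 ± 0.05. The exception that rested on wild type was the pseudogene Gm7224, at -3.01 in wild type and 0.30 in knockout; its reads could come from a near-identical copy.

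Among genes that fell with morphine in knockout, Plxnb3 stood first. Plxnb3 (ENSMUSG00000031385.8, chrX:73757090-73772514, plus strand), a semaphorin receptor that oligodendrocytes express, held 65.1, 50.5, 60.9 and 61.2 CPM in wild-type naive and 54.9, 62, 58.8 and 56.4 CPM in wild-type morphine libraries. It held 66.4, 77.8, 72.8 and 71.8 CPM in knockout naive and 43.2, 46.1, 52.1 and 44.2 CPM in knockout morphine libraries. Wild-type groups overlapped, and the knockout groups lay above and below them, except that wild-type naive library 2, at 50.5 CPM, lay within the knockout morphine range. The interaction was -0.59 ± 0.07 (95% interval -0.75 to -0.44, adjusted p 0.00394), from a fold change of 0.616 in knockout and 0.929 in wild type. It was the single gene of the 64 called in all 14 fits that left out 1 more library, with values from -0.63 to -0.56 and a highest adjusted p of 0.0305.

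Other genes known for oligodendrocytes and myelin lay in the same set. Myrf, the transcription factor that drives myelin genes, had an interaction of -0.48 ± 0.09, from -0.48 in knockout and 0.00 in wild type. Ttyh2, a membrane protein of the tweety family, had -0.41 ± 0.07, Dock5, an activator of Rac, -0.48 ± 0.08, and Cntn2, an axonal and glial adhesion protein, -0.31 ± 0.06. Dusp15, a phosphatase, had -0.33 ± 0.07 and Prr18 -0.38 ± 0.08. Plekhh1 and Fyco1 fell in both genotypes and further in knockout: Plekhh1 by 0.70 against 0.26 and Fyco1 by 0.35 against 0.13 on the log2 scale.

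The listed markers of mature oligodendrocytes moved the same way, with none called. The list was chosen with earlier results of these data known. Its markers were read in the same libraries as the genes above, so they are not a separate check of them. All 12 markers had an interaction below 0 in both fits, with a median of -0.53 in 16 and -0.48 in 14 libraries, against 0.00 in 16 and 0.01 in 14 for all genes tested. With morphine, 9 of 12 fell in knockout in 16 libraries (5.83% of all genes called lower) and 12 of 12 in 14 (7.38%). In wild type 0 of 12 fell in 16 libraries (2.07%) and 3 of 12 in 14 (1.61%). At an unadjusted p under 0.05, 10 of 12 were lower in 16 and 11 of 12 in 14 libraries, where 6.44% and 6.61% of all genes were. Mag, a myelin adhesion protein, was at 378, 452, 375 and 415 CPM in knockout naive and 242, 240, 291 and 229 CPM in knockout morphine libraries. In wild type it was at 358, 237, 328 and 398 CPM, then 277, 311, 294 and 320 CPM with morphine. Its interaction was -0.50 ± 0.10 (adjusted p 0.0608) in 14 libraries. Mog, a glycoprotein of the myelin surface, had -0.55 ± 0.12, with an adjusted p of 0.0798.

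The summed level of those 12 markers was 7170 to 9130 CPM in knockout morphine, 10300 to 11900 in knockout naive and 9010 to 10500 in wild-type morphine libraries. Wild-type naive libraries ran from 6650 CPM in library 2 to 11500 CPM in library 4, so library 2 alone was below every knockout morphine library. For precursors of oligodendrocytes, the 8 markers had a median interaction of 0.01 in 16 and -0.00 in 14 libraries, with 0 called and 0 at an unadjusted p under 0.05 in edgeR. The part of marker abundance in the results for Plxnb3, Myrf and the others of this set was not tested.

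Not every gene in the falling set is known from myelin. Slc12a2 (ENSMUSG00000024597.10, chr18:57878678-57946821, plus strand), the NKCC1 transporter that loads cells with chloride, held 183, 209, 191 and 208 CPM in knockout naive and 152, 160, 174 and 141 CPM in knockout morphine libraries. Wild-type libraries held 171, 143, 167 and 178 CPM without and 180, 187, 174 and 181 CPM with morphine. Its interaction was -0.46 ± 0.07 (adjusted p 0.0214), and both knockout groups lay apart from each other. Grin2c, a subunit of the NMDA receptor, had -0.42 ± 0.07. Npc1, which exports cholesterol from lysosomes, had -0.27 ± 0.05, and Fpr2, a receptor for formyl peptides, had -1.65 ± 0.33.

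**Figure D3:**
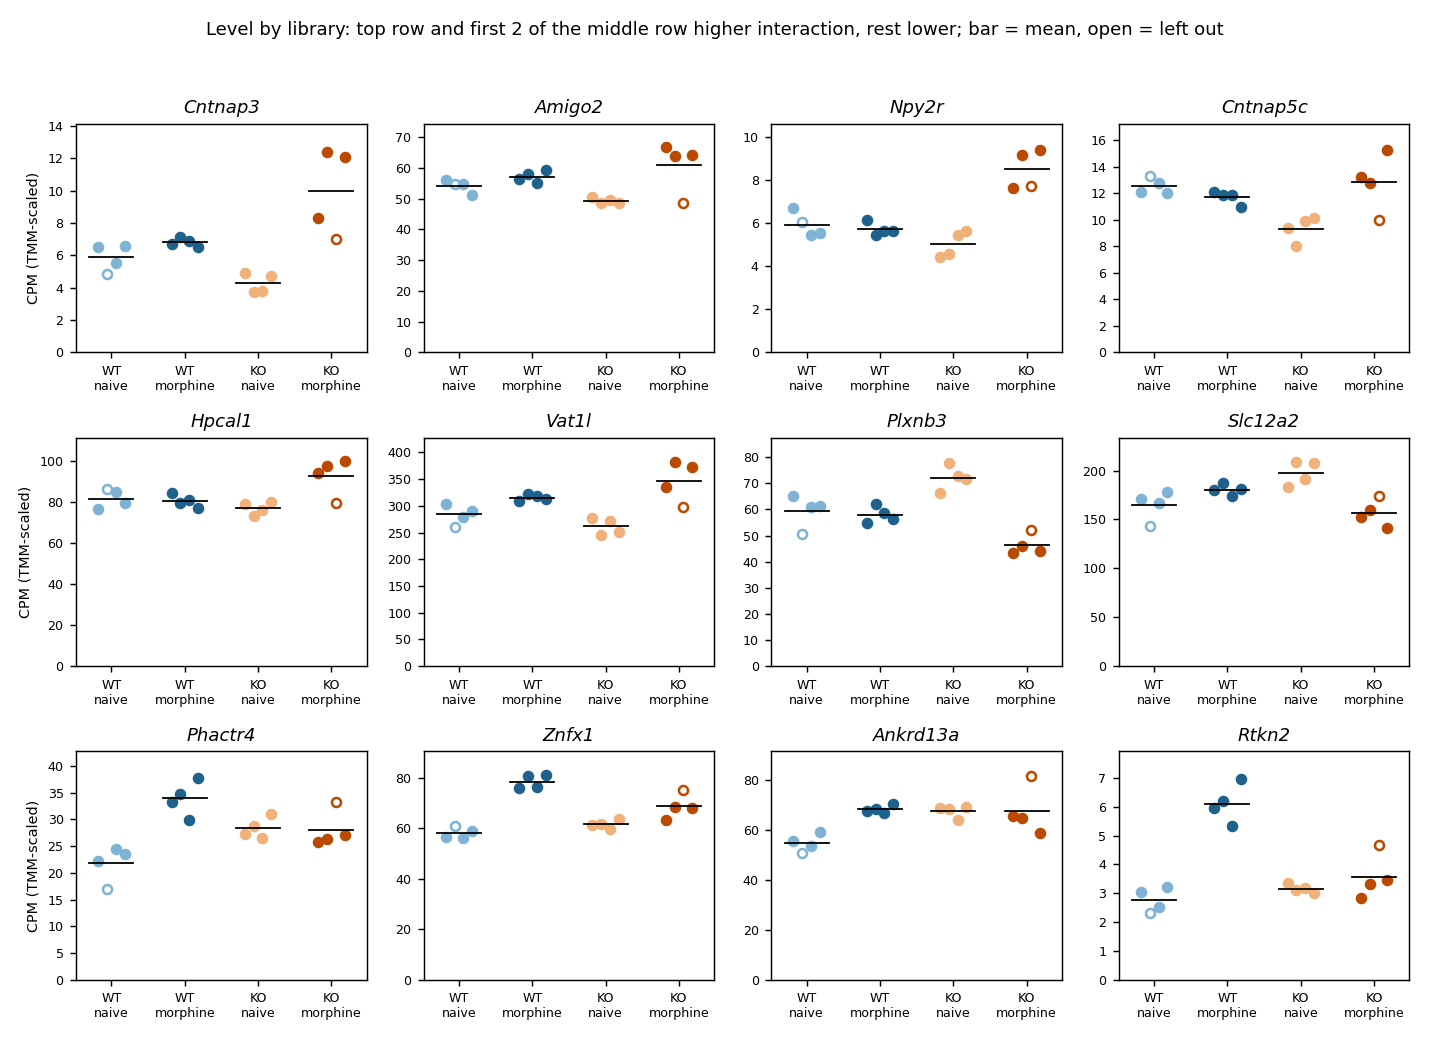
Level of the 12 genes named from the 14 libraries (y axes, TMM-scaled CPM from 0; bars are means of 4 libraries; open circles are the 2 left-out libraries). Npy2r and Plxnb3 separate knockout morphine from knockout naive libraries, Rtkn2 separates wild-type morphine libraries from the other 12, and the open knockout morphine circle for Amigo2 sits at 48.6.

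The last set, of 12 genes, rose with morphine in wild type and did not pass in knockout in 14 libraries. Rtkn2 (ENSMUSG00000037846.12, chr10:67979570-68059740, plus strand), of the rhotekin family, held 3.04, 2.31, 2.53 and 3.22 CPM in wild-type naive and 5.97, 6.19, 5.32 and 6.97 CPM in wild-type morphine libraries. It was at 3.36, 3.12, 3.17 and 3 CPM in knockout naive and 2.82, 3.33, 4.68 and 3.45 CPM in knockout morphine libraries. All 4 wild-type morphine libraries lay above the other 12, and the highest knockout library was the left-out one. The rise was 2.09-fold in wild type beside 1.01-fold in knockout, an interaction of -1.04 ± 0.17 (95% interval -1.40 to -0.69, adjusted p 0.0214) in 14 libraries and -0.98 ± 0.20 (adjusted p 0.143) in 16.

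Phactr4 (ENSMUSG00000066043.7, chr4:132355923-132422489, minus strand), a regulator of protein phosphatase 1 and actin, was at 22.3, 17, 24.4 and 23.5 CPM in wild-type naive and 33.3, 34.8, 29.8 and 37.8 CPM in wild-type morphine libraries. Knockout libraries were at 27.3, 28.8, 26.5 and 31.1 CPM without and 25.7, 26.4, 33.3 and 27 CPM with morphine. All 8 lay above the wild-type naive libraries, and those at 31.1 and 33.3 CPM reached into the wild-type morphine range. Its interaction was -0.63 ± 0.10 (adjusted p 0.0214). Ankrd13a (ENSMUSG00000041870.10, chr5:114774677-114806200, plus strand), a ubiquitin-binding protein, went from 55.6, 50.7, 53.6 and 59 CPM to 67.7, 68.5, 66.9 and 70.5 CPM in wild type. In knockout it was already at 68.7, 68.3, 64.1 and 69.1 CPM without morphine and at 65.4, 64.8, 81.5 and 58.9 CPM with it. For this gene the naive genotypes differed (0.27 ± 0.04, adjusted p 0.00602 in 14 libraries, and 0.0545 in 16), and the interaction was -0.39 ± 0.06 (adjusted p 0.0214). For Phactr4 and Ankrd13a the highest knockout morphine library, at 33.3 and 81.5 CPM, was the left-out one. With that library the morphine groups overlapped, and without it they did not.

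Znfx1 (ENSMUSG00000039501.8, chr2:167035793-167063015, minus strand), a helicase-like sensor of viral RNA, rose in wild type from 56.3, 60.9, 56 and 58.8 CPM to 75.9, 80.7, 76.3 and 80.9 CPM. Knockout went from 61.3, 61.7, 59.6 and 63.8 CPM to 63.2, 68.5, 74.9 and 68.1 CPM, and all 4 wild-type morphine libraries lay above every knockout one. The highest knockout library, at 74.9 CPM, was the left-out one. The interaction was -0.35 ± 0.06 (adjusted p 0.0214), from 1.37-fold in wild type and 1.08-fold in knockout. Adipor2, a receptor for adiponectin, had -0.66 ± 0.11, and Arid5b, a DNA-binding regulator of lipid genes, -0.45 ± 0.08. Mxd4, a repressor in the MYC network, rose by 0.58 in wild type and had 0.17 in knockout. Rhpn2, Rab31, Cdc37l1, Usp54 and Mtmr2 completed the 12.

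Genes induced by glucocorticoids, the targets of the stress hormone receptor, had 0 of 30 called for the interaction in either fit. In 16 libraries 21 of 30 rose with morphine in wild type (2.34% of all genes called higher) and 24 in knockout (5.67%). In 14 libraries 22 rose in wild type (1.46%) and 21 in knockout (7.38%). The median interaction was -0.18 in 16 and -0.28 in 14 libraries, and 6 and 10 of 30 were lower at an unadjusted p under 0.05 (6.44% and 6.61% of all genes), with 0 higher. The score of the list in knockout morphine libraries was 0.577 in library 3, which has high meningeal markers, and 0.146 to 0.181 in the others, against 0.399 to 0.543 in wild-type morphine libraries. Zbtb16, a zinc finger repressor, went from 25.4, 18.9, 20.2 and 25 CPM to 83, 90.7, 76.9 and 91.6 CPM in wild type. In knockout it went from 31.8, 22.7, 24.8 and 39.5 CPM to 44.5, 60.1, 84.1 and 51.5 CPM, where the library at 84.1 is the left-out one. Its interaction was -0.95 ± 0.29 (adjusted p 0.277) in 16 libraries and -1.08 ± 0.26 (adjusted p 0.118) in 14. Klf15, a metabolic transcription factor, had -0.36 ± 0.09 (adjusted p 0.109), Klf9 -0.26 ± 0.09 and Arrdc2 -0.57 ± 0.19 in 14 libraries.

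**Figure D4:**
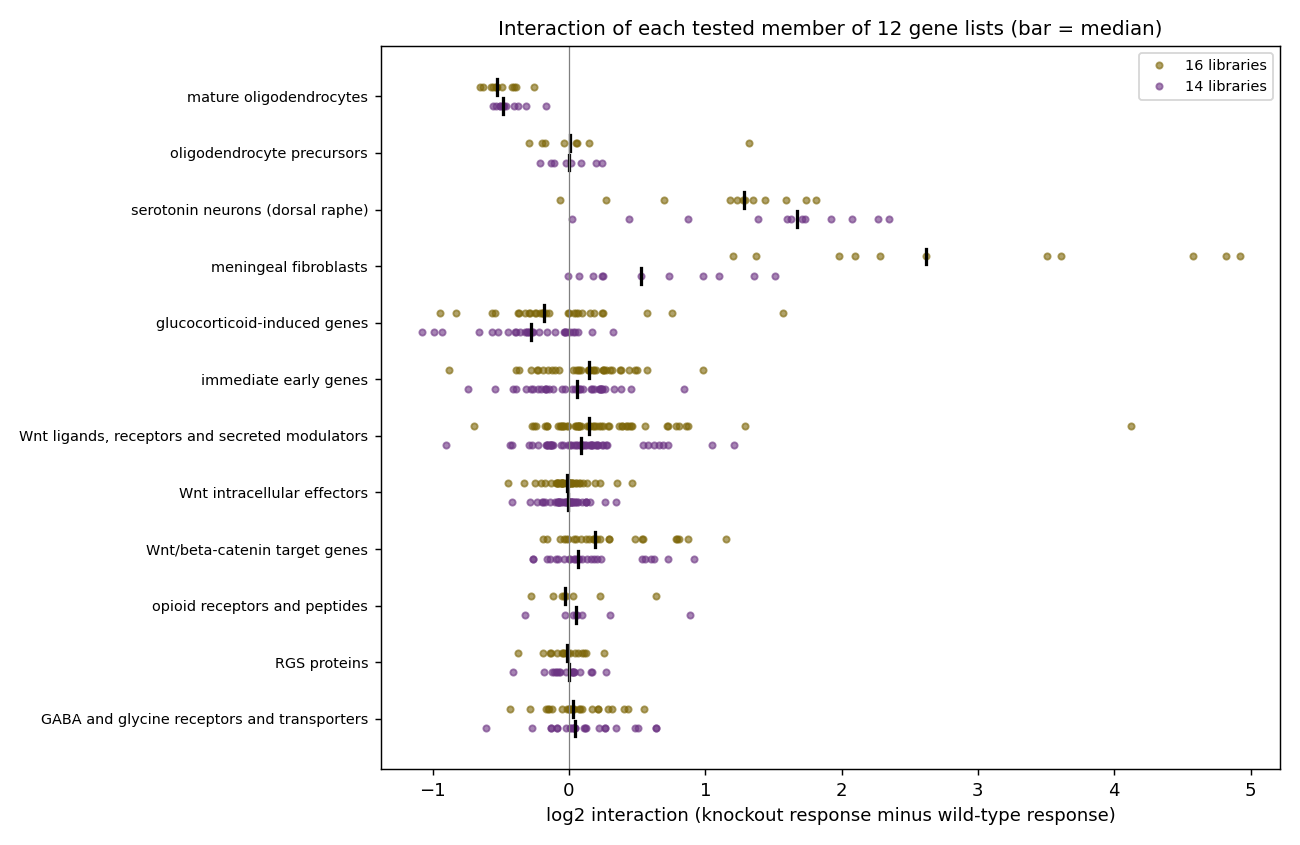
Interaction (x axis, log2, knockout response minus wild-type response) of each tested member of 12 gene lists, from 16 libraries (olive) and 14 libraries (purple), with medians as black bars. All 12 oligodendrocyte markers lie below 0 in both, and meningeal markers move from a median of 2.62 to 0.53 when the 2 libraries are left out. Wnt effectors and the list of RGS proteins and partners centre near 0.

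Serotonin neuron markers had a median interaction of 1.28 in 16 and 1.67 in 14 libraries. For the interaction 0 of 12 were called, and 4 and 11 of 12 were higher at an unadjusted p under 0.05, where 5.71% and 6.14% of all genes were. With morphine, 11 of 12 rose in knockout in both fits (5.67% and 7.38% of all genes called higher) and 0 in wild type (2.34% and 1.46%). Maob, which degrades monoamines, was at 49, 39.3, 37.6 and 51.3 CPM in knockout naive and 70.2, 111, 56.7 and 114 CPM in knockout morphine libraries. En1, a midbrain and hindbrain homeobox gene, was at 5.86, 5.46, 2.41 and 6.29 CPM and then 9.33, 20.9, 10.5 and 23.7 CPM. Libraries 2 and 4 of the knockout morphine group were the high ones for both genes, with list scores of 1.25 and 1.37 where the other 14 libraries had -1.65 to 0.58. Their interactions in 14 libraries were 0.88 ± 0.25 and 1.39 ± 0.49, with adjusted p of 0.175 and 0.257. With serotonin and meningeal scores as covariates the 14-library fit called 11 genes, of which 3 were among the 64: Adipor2, Usp54 and Sox1ot. All 64 kept their sign in that fit, which reused the 14 libraries that chose them. Beyond this fit, the part of tissue sampled in the 64 results was not tested.

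Opioid receptor and peptide genes gave 0 of 8 called in both fits. Oprm1, the mu receptor that morphine binds, had an interaction of -0.04 ± 0.13 (adjusted p 0.939) in 16 libraries, and the levels of its 16 libraries ran from 9.91 to 13.8 CPM. Penk, the precursor of enkephalins, was at 86.5, 80.7, 90.7 and 81.3 CPM in knockout naive and 109, 118, 95.8 and 112 CPM in knockout morphine libraries, where it passed (0.36, adjusted p 0.00241). In wild type it was at 95.4, 89.9, 103 and 83.7 CPM, then 104, 106, 96.8 and 102 CPM. Its interaction was 0.23 ± 0.09 (adjusted p 0.338) in 16 and 0.30 ± 0.08 (adjusted p 0.138) in 14 libraries. Pdyn, the dynorphin precursor, had 0.64 ± 0.37 in 16 libraries. The value for Oprk1, the kappa receptor, was -0.12 ± 0.15 in 16 and 0.03 ± 0.13 in 14 libraries.

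Downstream of the receptors, 0 of 60 genes for G proteins, cyclases, kinases, channels and arrestins were called. Their median interaction was 0.04 in 16 libraries and 0.05 in 14. At an unadjusted p under 0.05 in edgeR, 7 of 60 were higher and 3 lower in 16 libraries, where 5.71% and 6.44% of all genes were. In 14 libraries 11 of 60 were higher and 2 lower, where 6.14% and 6.61% of all genes were. Pde1a, a calcium-activated phosphodiesterase, had 0.40 ± 0.11, Gnai2, an inhibitory alpha subunit, 0.20 ± 0.06 and Adcy1, a calcium-stimulated adenylyl cyclase, -0.22 ± 0.07 in 16 libraries, none past the threshold. Among 18 tested genes for RGS proteins and their partners Rgs7bp and Gnb5, 0 were called, and the median was -0.02. Rgs9, a regulator of striatal opioid and dopamine signals, had 0.26 ± 0.09 and Rgs5 -0.37 ± 0.14.

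The Wnt genes named by the study's title gave no call in either fit. Of 52 tested ligands, receptors and secreted modulators 6 were higher at an unadjusted p under 0.05 in 16 libraries (5.71% of all genes), and 2 higher (6.14%) with 4 lower (6.61%) in 14. For Wnt6, the value of 4.12 ± 1.49 in 16 libraries rested on 3.81 CPM in wild-type naive library 2 and 2.41 CPM in knockout morphine library 3, where the other 14 held 0.15 to 0.917 CPM, and was 1.05 ± 0.60 without both. Of 40 intracellular effectors 0 were called, with a median of -0.01 in both fits. Of 26 target genes 5 were higher at an unadjusted p under 0.05 in 16 libraries (5.71% of all genes) and 3 in 14 (6.14%), with medians of 0.19 and 0.07.

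With morphine, 7 of the 26 targets fell in wild type (2.07% of all genes called lower) and 5 in knockout (5.83%) in 16 libraries, and 6 (1.61%) and 5 (7.38%) in 14. Sox9, a glial transcription factor, went from 39.5, 43.5, 42.6 and 34.4 CPM to 21.2, 18.9, 20.6 and 20 CPM in wild type. In knockout it went from 37.6, 32.1, 38 and 34.9 CPM to 35.5, 25.6, 19.9 and 23 CPM. Knockout morphine library 1 thus stayed in the naive range, and the interaction was 0.54 ± 0.19 (adjusted p 0.302). Rnf43, a ubiquitin ligase that removes Wnt receptors, fell in both genotypes, by 1.05 and 0.56 on the log2 scale, with an interaction of 0.49 ± 0.18 (adjusted p 0.302). Cd44, a hyaluronan receptor, had 1.15 ± 0.25 (adjusted p 0.143) in 16 and 0.92 ± 0.24 (adjusted p 0.0948) in 14 libraries.

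The other lists are given by their counts and medians. Among 25 receptors and transporters for GABA and glycine 1 was called in 14 libraries, Gabre, and among 34 glutamate receptors and scaffolds 1, Grin2c (0.352% of all genes). Both lists had medians from 0.01 to 0.05. At an unadjusted p under 0.05 in edgeR in 14 libraries, 5 of the 25 were higher and 3 lower. Of the 34, 1 was higher and 3 lower (6.14% and 6.61% of all genes). Of 36 immediate early genes, which neurons switch on after activity, 0 were called, with medians of 0.15 in 16 and 0.06 in 14 libraries. Genes of endoplasmic reticulum stress, heat shock, the circadian clock, sterol synthesis, the Notch pathway and cytokines had 0 called and medians from -0.09 to 0.08 in both fits. Markers of astrocytes, microglia, endothelial cells and neurons in general had 0 called and medians from -0.16 to 0.08. Pericyte and smooth muscle markers went from a median of 0.53 in 16 libraries to -0.02 in 14. Smaller marker lists of 4 to 7 tested genes, for GABAergic, glutamatergic, dopamine and cholinergic neurons, ependyma, choroid plexus, red blood cells, tectum and forebrain, had 0 called and medians from -0.67 to 0.91.

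**Figure D5:**
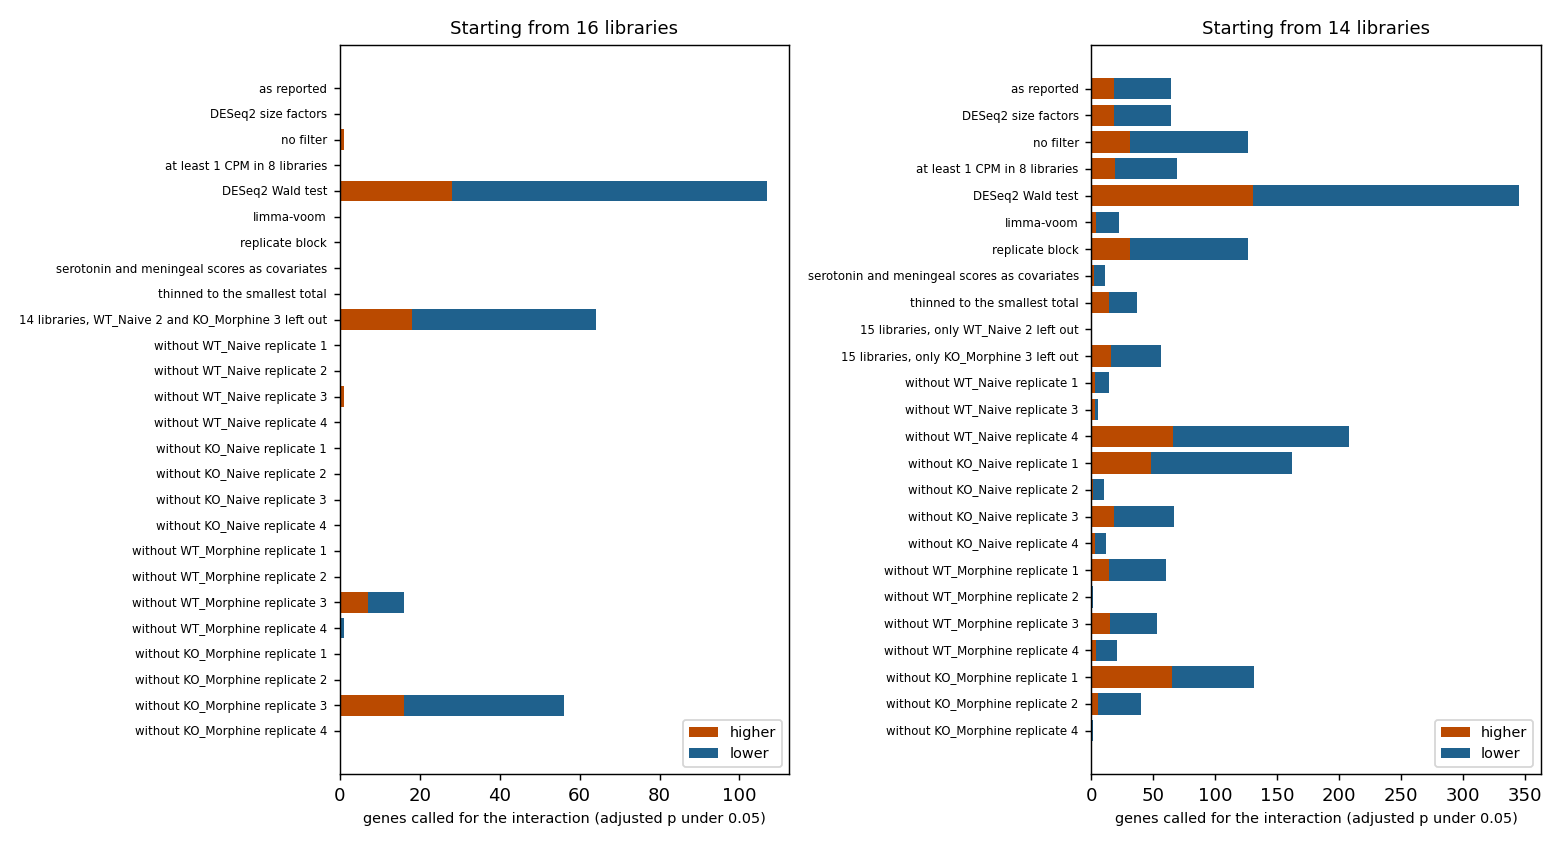
Number of genes called for the interaction (x axis, edgeR adjusted p under 0.05 except for the DESeq2 and limma-voom rows; orange higher, blue lower) under each setting, starting from 16 libraries (left) and 14 libraries (right). From 16 libraries most settings give 0 and DESeq2 gives 107; from 14 libraries leaving out 1 more gives 1 to 208.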

How the data were processed

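RNA was extracted from pooled PAG punches with TRIzol and made into TruSeq libraries, per the labels' protocols. The deposited files hold raw read counts per gene; the submitters' processing notes name HTSeq, limma and mm10, for the aligner, the annotation and strand use, the sources read here name none. Tally rows that name no gene, 38.2 to 40.6% of each file's total, were left out of library sizes and tests. Gene symbols and coordinates came from GENCODE M21 (GRCm38), which matched 37607 of 38924 identifiers.

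Genes were filtered with filterByExpr (minimum count 10), scaled by TMM and tested with edgeR 4.0.16 (robust quasi-likelihood, 1 coefficient per group, R 4.3.3), with Benjamini-Hochberg adjustment over all genes tested and a threshold of 0.05. Standard errors are the log2 fold change over the square root of F. Alternatives used DESeq2 1.42.0, limma 3.58.1 voom, other filters, scalings, thinned counts, a replicate block, covariates and left-out libraries. All but DESeq2 and the single left-out libraries of the pair were added for the 14-library fit after seeing the data. The script was tested on simulated data.

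The members and gene lists were chosen with earlier results of these data known, so lists are described by counts and medians and carry no test; of 38 lists, the hindbrain one had 0 of 9 genes tested. The rule for named genes took, per fit and direction, 6 genes by rank of p among those averaging 1 or more in log2 CPM, predicted genes and pseudogenes aside, plus Rgs20, opioid genes and up to 4 per list. No pair of same-group libraries agreed within sampling noise. Same-numbered libraries correlated at -0.283 to 0.133 in their deviations from group means, so numbers were not taken to pair them. Reads from a gene and an antisense or overlapping partner cannot be told apart if strand was not used. Values of a few genes that the rule names are not reported here.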

Additional observations from a re-analysis of the deposited data

Results flagged for a closer look

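The morphine response differed between the genotypes, by the interaction test in 14 libraries, for the 12 genes named there. In knockout relative to wild type the log2 response was higher for Npy2r by 0.84, Cntnap3 by 1.20, Amigo2 by 0.32, Cntnap5c by 0.64, Hpcal1 by 0.33 and Vat1l by 0.36. The values of the lower genes were -0.59 for Plxnb3, -1.04 for Rtkn2, -0.46 for Slc12a2, -0.63 for Phactr4, -0.35 for Znfx1 and -0.39 for Ankrd13a. None of the 12 passed in all 16 libraries. With the serotonin and meningeal scores as covariates in 14 libraries, all 12 kept their sign and none passed, with edgeR adjusted p from 0.0611 to 0.221. With limma-voom Hpcal1 and Vat1l did not pass, at 0.0542 each.

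In 120 groups of 4 libraries checked, 4 had 1 library far from the other 3, where chance gives about 1 in 20. Amigo2 in knockout morphine library 3 was at 48.6 CPM where the others were at 64 to 66.7. Ankrd13a in knockout naive library 3 was at 64.1 CPM, below 68.3 to 69.1 in the others. The meningeal score of wild-type naive library 2 was 2.6, and the score of glucocorticoid-induced genes in knockout morphine library 3 was 0.577 beside 0.146 to 0.181.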

How the results depend on the processing

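From 16 libraries, the 0 higher and 0 lower calls became 1 higher with no filter, 28 higher and 79 lower with DESeq2, and 18 and 46 without the meningeal-marker pair; leaving out 1 library gave 0 to 16 higher and 0 to 40 lower, most without knockout morphine library 3, then wild-type morphine library 3 (7 and 9). The replicate block gave 0 in 16 libraries. The labels do not say whether equal numbers mark a pair, and they were not taken to do so. From 14 libraries, the 18 higher and 46 lower calls were 31 and 95 with no filter, 130 and 215 with DESeq2, and 4 and 18 with limma-voom. They were 31 and 95 with the replicate block, 2 and 9 with covariates, and 0 and 0 when only wild-type naive library 2 was left out. Thinned counts gave 37 calls, 23 of them lower. Leaving out 1 more library gave 0 to 66 higher and 1 to 142 lower. The totals were 1 without wild-type morphine library 2 or knockout morphine library 4, 5 without wild-type naive library 3, 10 and 12 without knockout naive libraries 2 and 4, 14 without wild-type naive library 1, 21 without wild-type morphine library 4, 40 without knockout morphine library 2, 131 without knockout morphine library 1, 162 without knockout naive library 1 and 208 without wild-type naive library 4. Of the 64, 27 were called in at least 7 of those 14 fits, and all kept their sign in each. Those fits reuse the libraries in which the 64 were chosen by small p, so a kept sign is not separate evidence. Among the named genes recomputed under every alternative, those that changed sign, none of them called, were Reck (-0.0616), Oprk1 (0.21) and Cnn1 (-0.67) with covariates, and Oprk1 (0.0323) without the pair; other list members near 0, such as Pomc (-0.02 to 0.06) and Pnoc (-0.05 to 0.10), also changed sign without the pair. The cause of the changes in count was not tested. With 3 or 4 libraries a group, a typical interaction has an unadjusted 95% interval of about 0.225 on either side.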

Other observations

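Neuropeptide precursors had a median interaction of 0.22 in 16 libraries and 0.21 in 14, with 0 of 21 called and 2 and 7 of 21 higher at an unadjusted p under 0.05 (5.71% and 6.14% of all genes). Vip, vasoactive intestinal peptide, was at 35, 35.3, 35.7 and 19.7 CPM in wild-type naive and 32, 25, 31.8 and 29.5 CPM in wild-type morphine libraries. In knockout it was at 12.7, 12, 12.3 and 25.8 CPM, then 28, 28, 26.1 and 52 CPM with morphine, an interaction of 1.19 ± 0.42 (edgeR adjusted p 0.314). Library 4 was the high one in both knockout groups and the low one among wild-type naive libraries.

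Noradrenergic neuron markers had a median interaction of 2.63 over 4 tested genes, with a median standard error of 2.19 and 0 called in edgeR, 0 of them at an unadjusted p under 0.05. Their summed level was 70.7 CPM in knockout morphine library 2 and 13.3 to 36 CPM in the other 15. Interferon-stimulated genes had a median of 0.48 in 16 libraries and -0.05 without the pair, with 0 of 19 called in either.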
